A study of Saccharomyces cerevisiae with 10 samples.

Results

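The 56 genes described here are the ribosome assembly factors of budding yeast whose names follow the numbered series UTP, RRP, NOP, NOC, NSA and RIX. They were taken by name from the mRNA features of the table, with the snoRNP core genes NOP1, NOP10, NOP56 and NOP58 left out. The name rule itself uses no measured value, but it was written with earlier results of these data known. They are 56 of 7032 features in the table, of which 6596 are mRNAs, and all 56 matched a locus of the R64 annotation. Groups of them named for a complex, such as UTP-A, UTP-B or the exosome, hold only genes taken by name, not every subunit. The series set cells that carry the prion [BIG+], a protein-based heritable state, against naive cells without it. Both states are labelled WT in the BY4741 background, a haploid laboratory strain, and had 5 cultures each, grown from separate colonies. A 5 mL YPD culture was grown overnight at 30 °C and diluted into 700 mL of the same rich medium, which was harvested at an OD of 1.0. [BIG+] libraries carry the name stem YDJ1952 and naive ones YDJ128, so prion state and any other difference between these stocks cannot be told apart.

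Ribosome assembly begins in the nucleolus, where RNA polymerase I makes a long precursor that holds most of the ribosomal RNA. The UTP complexes, with the U3 snoRNP, fold the small-subunit part of that precursor into the small-subunit processome. Other factors build the precursor of the large subunit, modify its RNA and prepare it for export, and the exosome, a ring-shaped RNA-degrading complex, trims and removes RNA. In growing yeast the genes of these factors are known for being expressed together, high in rich medium and low under stress or starvation. Many of their promoters hold a pair of short elements, PAC and RRPE. PAC is bound by the repressors Dot6 and Tod6 and RRPE by Stb3.

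These elements were searched for in the promoters, which the name rule did not use. In the 300 bases before the start codon (R64), the PAC core GCGATGAG was found on either strand in 25 of 56 assembly factors, 44.6%, against 4.05% of 6001 nuclear protein-coding genes. The RRPE core AAAAATTT was found in 42, or 75.0%, against 15.1%, and both motifs in 21, or 37.5%, against 2.37%. The shares for all genes include the assembly factors, and no base is shared between the motifs in the stretches printed here. The UTP-A genes taken by name held RRPE in 6 of 6 promoters and PAC in 3, whereas the exosome genes held RRPE in 4 of 7 and PAC in 1. A match describes letters in this window and is not a measured binding site. The stretches of 5 promoters are given because these genes are described below by their range between cultures or by their fold change and hold both motifs. Each reads 5′ to 3′ on the gene's own strand, with 15 bases on either side of the outer motifs, and capitals mark the motifs on either strand.
RRP8 (chrIV:611960-612006, plus strand): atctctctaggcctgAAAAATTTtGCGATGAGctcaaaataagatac
NOP13 (chrXIV:308691-308755, minus strand): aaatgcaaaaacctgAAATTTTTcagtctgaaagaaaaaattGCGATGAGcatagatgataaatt
UTP5 (chrIV:1267270-1267360, plus strand): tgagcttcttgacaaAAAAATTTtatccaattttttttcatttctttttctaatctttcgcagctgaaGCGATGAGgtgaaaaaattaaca
RRP12 (chrXVI:529494-529581, plus strand): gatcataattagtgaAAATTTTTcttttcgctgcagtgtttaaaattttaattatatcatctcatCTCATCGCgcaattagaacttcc
UTP11 (chrXI:256579-256639, minus strand): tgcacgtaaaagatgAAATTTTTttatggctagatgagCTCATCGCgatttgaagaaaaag
RRPE lay farther from the start codon than PAC in all 5, and the first base of PAC lay between 89 bases (RRP8) and 164 bases (RRP12) before it. In RRP8 a single base separates the motifs.

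Levels are in TPM, a unit scaled for gene length and to a fixed sum in each library. It keeps no sequencing depth, so the depth is unknown and no counting interval can be given. The mRNA features took 43.5 to 53.5% of TPM in [BIG+] and 42.9 to 53.0% in naive libraries, the rest being mostly small RNAs, so a level in TPM moves with that share. A change in transcripts per cell and a change in the other RNAs of a cell cannot be told apart on this scale. Culture 5 had the highest mRNA share in both states. Its snoRNAs took 14.5% of TPM in [BIG+], against 25.9 to 29.9% in the other [BIG+] cultures. In naive culture 5 they took 26.3%, against 30.8 to 34.7% in the other naive cultures. LEU2, URA3 and MET17, which BY4741 lacks, were listed at 0 in all 10 libraries, and HIS3, of which the strain keeps a part, was at 18.4 to 55.0 TPM. Mating-type a markers (7 genes) summed to 611 to 827 TPM in [BIG+] and 629 to 920 TPM in naive libraries, although MFA1 and MFA2 among them were listed at 0, and alpha markers (4 genes) to 3.40 to 4.99 and 3.37 to 5.34 TPM. None of the 56 genes overlaps another gene of the RefSeq R64 annotation, but 682 mRNA features of the table have no entry there and their overlaps were not examined.

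The assembly factors were low to moderate transcripts, and those of 1 complex were not expressed at equal levels. Their summed level was 540 ± 166 TPM in [BIG+] and 536 ± 147 TPM in naive cultures (SD, n = 5 each), or 0.114 ± 0.0325% and 0.112 ± 0.0272% of all mRNA TPM. The median gene averaged 7.25 TPM over the 10 libraries, against 7.11 TPM for all 5732 genes tested. By mean level, 6 genes were at 20 TPM or more, 16 between 10 and 20, 19 between 5 and 10, 13 between 1 and 5 and 2 under 1 TPM. Between the highest, RRP5, and the lowest, NOP16, the levels differed 38.7-fold.

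Among the small-subunit genes, RRP5 was the most abundant. RRP5 (YMR229C, chromosome XIII, 725934 to 731123, R64), a large RNA-binding protein used in making both subunits, was at 34.0, 33.7, 29.7, 24.1 and 32.0 TPM in [BIG+] cultures 1 to 5 and at 39.2, 27.9, 26.7, 28.0 and 34.4 TPM in naive cultures 1 to 5. The states overlapped, and culture 4 was the lowest of the [BIG+] set and culture 3 of the naive set. UTP10 (YJL109C, chromosome X, 212000 to 217309), the large scaffold of UTP-A, was at 26.6, 26.3, 21.1, 17.3 and 26.8 TPM in [BIG+] and 30.8, 22.0, 18.2, 19.5 and 26.2 TPM in naive cultures. It stood 6.30-fold above UTP9, the lowest of the 6 UTP-A genes taken by name, at a mean of 3.73 TPM. Of UTP-B, a complex that binds early on the precursor, the 4 genes taken by name had means between 3.37 TPM for UTP6 and 10.1 TPM for UTP13. The UTP-C genes UTP22 and RRP7 averaged 13.5 and 11.2 TPM. RRP36, a processome factor, was the lowest small-subunit gene at 1.86 TPM.

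Large-subunit genes ran over the widest span. NSA2 (YER126C, chromosome V, 413394 to 414179), needed for a late step of precursor processing, was their highest, at 34.8, 36.1, 21.7, 16.4 and 22.8 TPM in [BIG+] and 33.1, 33.2, 18.9, 22.0 and 23.8 TPM in naive cultures. In both states cultures 1 and 2 were the high ones. NOP16 (YER002W, chromosome V, 156803 to 157498), a constituent of the large-subunit precursor, was at 0.282 to 1.14 TPM in [BIG+] and 0.348 to 1.19 TPM in naive cultures, and with RRP14 fell short of the mean of 1 TPM required for a test. The remaining 54 genes were tested. Exosome genes were more even, from RRP45 at a mean of 4.61 TPM to RRP40, a subunit of its RNA-entry cap, at 22.4 TPM. RRP40 (YOL142W, chromosome XV, 55558 to 56280) was at 25.4, 25.4, 19.0, 14.8 and 31.4 TPM in [BIG+] and 22.8, 24.0, 15.7, 16.6 and 28.8 TPM in naive cultures, with culture 5 the highest in both. RRP12 (YPL012W, chromosome XVI, 529723 to 533409), a repeat protein used in export of both subunits, averaged 18.6 ± 4.56 TPM in [BIG+] and 18.7 ± 4.62 TPM in naive cultures.

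The first comparison asked whether these genes differ between [BIG+] and naive cells, and none passed the test. On log2(TPM + 1), a scale that understates changes of low genes, limma called 0 of 54 higher and 0 lower at an adjusted p under 0.05, where it called 0% of all 5732 genes (96 at an unadjusted p under 0.05, none of them an assembly factor). With the replicate number as a block, which pairs culture 1 with culture 1 and so on, 0.611% of all genes were called (0.0349% higher, 0.576% lower) and again 0 assembly factors, none of which reached an unadjusted p of 0.05. The median log2 fold change of the 54 was -0.007, and that of all genes tested was -0.057. Fold changes lay between -0.24 for UTP22 and 0.16 for UTP11, with 30 genes lower and 24 higher in [BIG+]. With median-of-ratios scaling 12 were lower and the median was 0.05, and with quantile normalization 11 and 0.05, against 0.00 for all genes under either. The median of the 54 lay above that of all genes as deposited and under both scalings. The side of 0 on which most lie, however, depended on the scaling. It depended on single libraries too: as deposited, 1 of 54 was lower without [BIG+] culture 4, 5 without [BIG+] culture 3 and 6 without naive culture 1, but 51 without naive culture 3. No assembly factor had states that did not overlap, as 0.384% of all genes did.

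**Figure D1:**
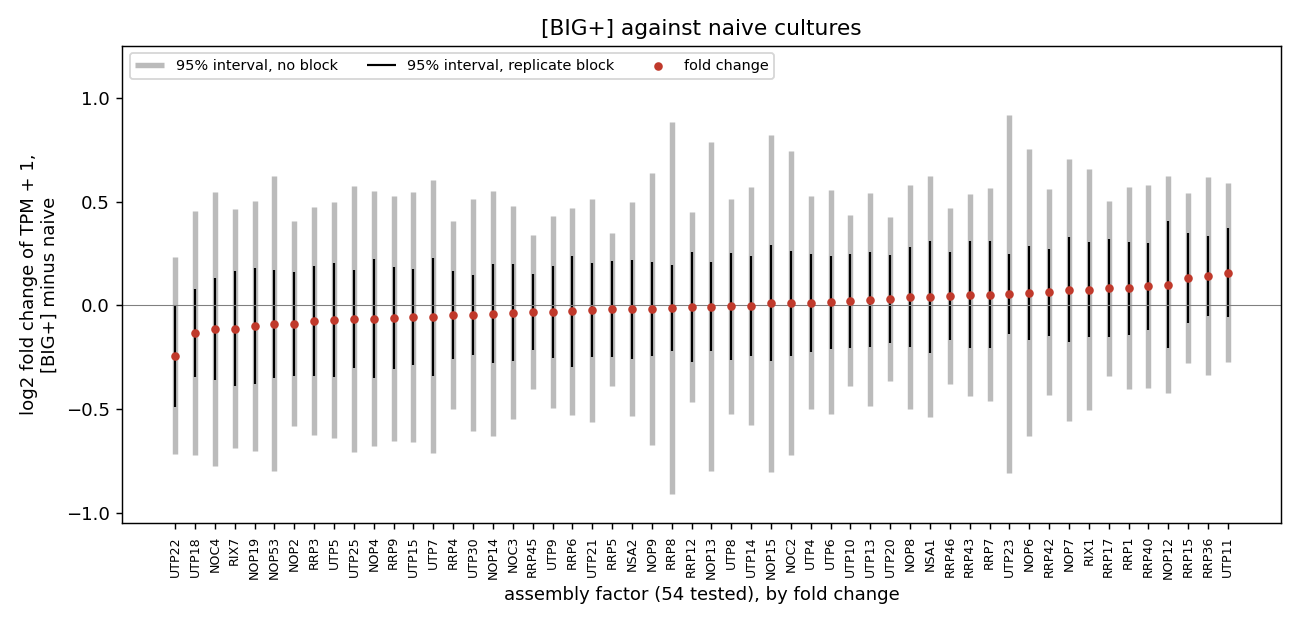
Log2 fold change of TPM + 1, [BIG+] minus naive, of the 54 assembly factors tested, ordered by size (red points), with 95% intervals from limma without a block (grey) and with the replicate block (black). The points run from -0.24 for UTP22 to 0.16 for UTP11, and every interval without a block spans 0.

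UTP22 (YGR090W, chromosome VII, 662358 to 666071), the core of UTP-C, had the most negative fold change. It was at 14.1, 10.8, 11.8, 8.46 and 16.1 TPM in [BIG+] cultures 1 to 5 and at 20.3, 13.7, 10.3, 11.3 and 18.5 TPM in naive cultures 1 to 5, so the states overlapped and [BIG+] was the lower of 4 of 5 pairs. On the log2 scale [BIG+] differed by -0.24 ± 0.22 (SE), with a limma adjusted p of 0.999, and with the block the SE was 0.11 and the adjusted p 0.453. UTP18 (YJL069C, chromosome X, 310922 to 312706), of UTP-B, averaged 6.04 ± 2.33 TPM in [BIG+] and 6.63 ± 2.33 TPM in naive cultures (SD, n = 5 each), with a log2 fold change of -0.13 ± 0.27 (SE). NOC4 (YPR144C, chromosome XVI, 819765 to 821423), the partner of NOP14 in the processome, was at 13.3, 13.4, 6.72, 5.58 and 16.5 TPM in [BIG+] and 14.8, 13.0, 6.34, 8.65 and 16.5 TPM in naive cultures, a log2 fold change of -0.11 ± 0.31 (SE).

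On the other side stood UTP11 (YKL099C, chromosome XI, 255720 to 256472), a small processome protein. It was at 7.69, 7.48, 4.85, 3.87 and 5.18 TPM in [BIG+] and 6.05, 6.32, 3.58, 4.09 and 5.22 TPM in naive cultures, overlapping sets that differed by 0.16 ± 0.20 on the log2 scale (SE). The limma adjusted p was 0.999, and with the block the SE was 0.10 and the adjusted p 0.572. RRP36 (YOR287C, chromosome XV, 850937 to 851839) and RRP15 (YPR143W, chromosome XVI, 818323 to 819075), of the small- and large-subunit precursors in that order, had log2 fold changes of 0.14 ± 0.22 and 0.13 ± 0.19 (SE). The largest fold changes in the other roles were -0.07 ± 0.26 for UTP5, 0.09 ± 0.23 for RRP40 and -0.01 ± 0.21 for RRP12 (SE). The median SE over the 54 genes was 0.250 without the block and 0.106 with it. With the block all 54 of the 95% intervals lay between -0.49 and 0.41, and without it they reached from -0.91 to 0.92.

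The pairs did not lean one way. In culture 1 the assembly factors were lower in [BIG+] at 27 of 56 genes, with a median log2 difference of 0.01, where 58.3% of all genes tested were lower. In cultures 2 and 3 they were lower at 7 and 9 genes, with medians of 0.21 and 0.15, where 38.7 and 40.8% of all genes tested were lower. In culture 4 they were lower at 53 genes, with a median of -0.34, where 76.6% of all genes were lower. In culture 5 they were lower at 31 genes, with a median of -0.04, where 74.9% were. No assembly factor was lower, and none higher, in 5 of 5 pairs, and the share of all genes that were was not computed.

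**Figure D2:**
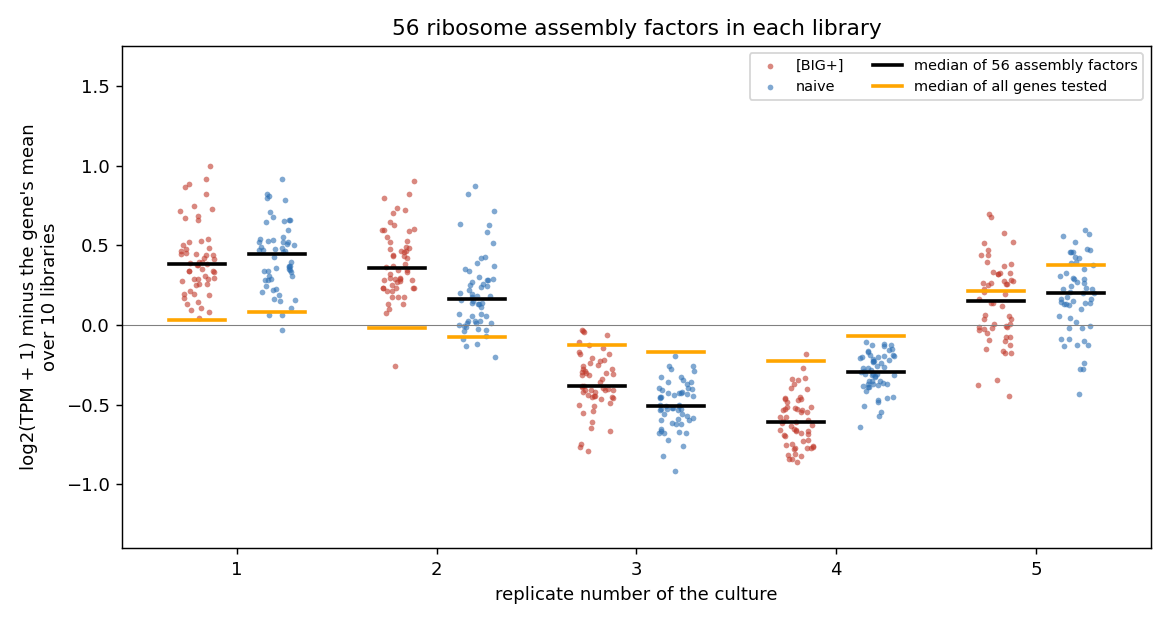
Log2(TPM + 1) minus the gene's mean over 10 libraries for each of the 56 assembly factors (points), by replicate number, [BIG+] left of naive. Black bars are medians of the 56 and orange bars medians of all genes tested, and all 56 genes lie below 0 in the 4 libraries numbered 3 or 4.

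The second comparison ran across the replicate numbers, which the titles give and which the labels do not tie to a day or batch. Here the assembly factors differed together, in both states. Each of the 56 was lowest at number 3 (22 genes) or number 4 (34 genes), and highest at number 1 (33 genes), number 2 (11 genes) or number 5 (12 genes). Over the 56, the median deviation from each gene's own mean was 0.39, 0.36, -0.38, -0.61 and 0.15 (log2) in [BIG+] cultures 1 to 5 and 0.44, 0.17, -0.51, -0.29 and 0.20 in naive cultures 1 to 5. For all genes tested it was 0.03, -0.02, -0.13, -0.23 and 0.22 in [BIG+] and 0.08, -0.07, -0.17, -0.07 and 0.37 in naive cultures. Relative to all genes, the assembly factors were therefore high in cultures 1 and 2, by 0.24 to 0.38, and low in cultures 3 and 4, by 0.22 to 0.38. In culture 5 they stood 0.06 below all genes in [BIG+] and 0.17 below in naive, although above their own means.

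In limma's F test of the replicate number, with the state in the model, 53 of 54 assembly factors passed at an adjusted p under 0.05, where 63.3% of all genes did. RRP5 did not pass (limma adjusted p = 0.128). General stress genes, a list of 20, were 1.42 above their means in naive culture 5 and 0.493 above in [BIG+] culture 5, against -0.500 to -0.052 in the other 8 libraries. Between the states 0 of these 20 were called without the block and 3 lower with it, where 0.576% of all genes were called lower. The most changed was HSP12, at -1.89 ± 0.37 (SE, no block), with a limma adjusted p of 0.237 and, with the block, of 0.000102. Its states overlapped, at 64.1 to 217.9 TPM in [BIG+] and 212.6 to 827.7 TPM in naive cultures. The part of the stress genes in the F test result was not tested. Without the cultures numbered 5, 47 of 54 assembly factors passed, where 24.4% of all genes did. Median-of-ratios scaling gave 44 of 54, where 38.0% of all genes passed, quantile normalization 41 (36.5%) and scaling to nuclear mRNA 50 (39.2%). Under the first of these the lowest number was 3 or 4 for 44 of 54 and 5 for the other 10, and for all genes it was 3 or 4 in 29.8% (58.6% as deposited). Under that scaling their medians over the 54 at numbers 1 to 5 were 0.34, 0.34, -0.29, -0.32 and -0.10 (log2), so number 5 changed sign against 0.20 as deposited. With a filter of 10 TPM 21 of 22 passed, where 70.6% of all genes did. Every library numbered 1 or 2 was above every library numbered 3 or 4 for 53 of the 56 (not for RRP5, RRP7 and UTP22), and for 29.5% of all genes tested. That division of the numbers was made with these data known and has no test.

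**Figure D3:**
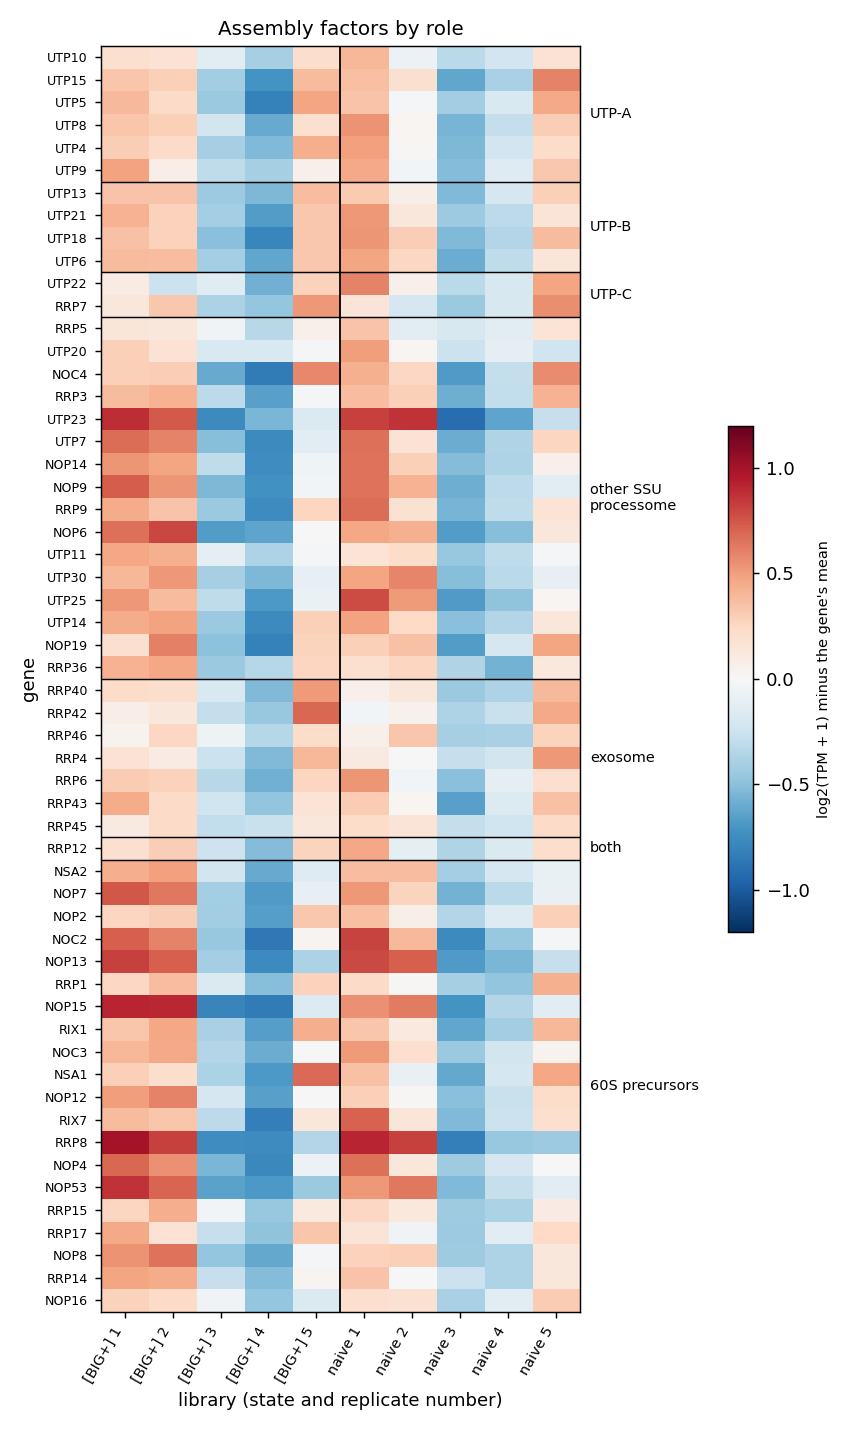
Log2(TPM + 1) minus the gene's mean over 10 libraries (colour) for the 56 assembly factors (rows, grouped by role and ordered by level) in [BIG+] cultures 1 to 5 and naive cultures 1 to 5 (columns). Columns 3 and 4 are blue in both states, and on this deposited scale column 5 is red in the exosome and UTP-A rows and mixed in the large-subunit rows.

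The size of the difference varied between genes and roles. The mean of cultures 1 and 2 over that of cultures 3 and 4 in both states had a median of 1.87-fold over the 56, was above 2-fold for 25 and above 3-fold for RRP8, NOP8, UTP23 and NOP53. These folds are in TPM as deposited, and the share of all genes above them was not computed. Numbers 3 and 4 minus 1 and 2 had a median of -0.784 (log2) over the 54 tested and -0.156 over all genes. The median range over the 5 numbers was 0.946 as deposited, 0.719 with median-of-ratios scaling and 0.664 with quantile normalization. All genes had 0.674, 0.493 and 0.479 in that order. The 4 genes with the widest range of log2(TPM + 1) over the 5 numbers were RRP8, UTP23, NOP15 and NOP13. RRP8 (YDR083W, chromosome IV, 612073 to 613251), a methyltransferase of large-subunit RNA, ranged the most. It was at 9.08, 7.95, 2.02, 1.99 and 2.98 TPM in [BIG+] and 8.57, 7.96, 1.86, 2.69 and 2.75 TPM in naive cultures, 3.92-fold higher in numbers 1 and 2 than in 3 and 4 (limma adjusted p = 0.000252 over the 5 numbers). Cultures 3 to 5 were low in both states, with no overlap with 1 and 2. UTP23 (YOR004W, chromosome XV, 333592 to 334356), needed to release a snoRNA from the processome, was at 13.0, 11.6, 3.48, 4.21 and 5.72 TPM in [BIG+] and 12.5, 12.9, 3.02, 3.89 and 5.29 TPM in naive cultures. Cultures 1 and 2 were again the high ones, 3.43-fold above 3 and 4, with the same adjusted p.

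NOP15 (YNL110C, chromosome XIV, 417826 to 418488), an RNA-binding protein of the large-subunit precursor, was at 18.1, 18.0, 4.85, 4.66 and 8.05 TPM in [BIG+] and 13.8, 14.6, 5.15, 6.93 and 8.30 TPM in naive cultures (limma adjusted p = 0.00121). Number 5 lay between the low and the high cultures, and numbers 1 and 2 were 2.99-fold above 3 and 4. NOP13 (YNL175C, chromosome XIV, 307401 to 308612), a nucleolar RNA-binding protein, was at 25.7, 23.8, 10.4, 7.85 and 10.6 TPM in [BIG+] and 25.2, 23.7, 8.43, 9.32 and 11.5 TPM in naive cultures, 2.74-fold higher in numbers 1 and 2 than in 3 and 4 (limma adjusted p = 0.000601). The 4 genes had [BIG+] minus naive log2 fold changes of -0.01, 0.05, 0.01 and -0.01 in the order given.

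**Figure D4:**
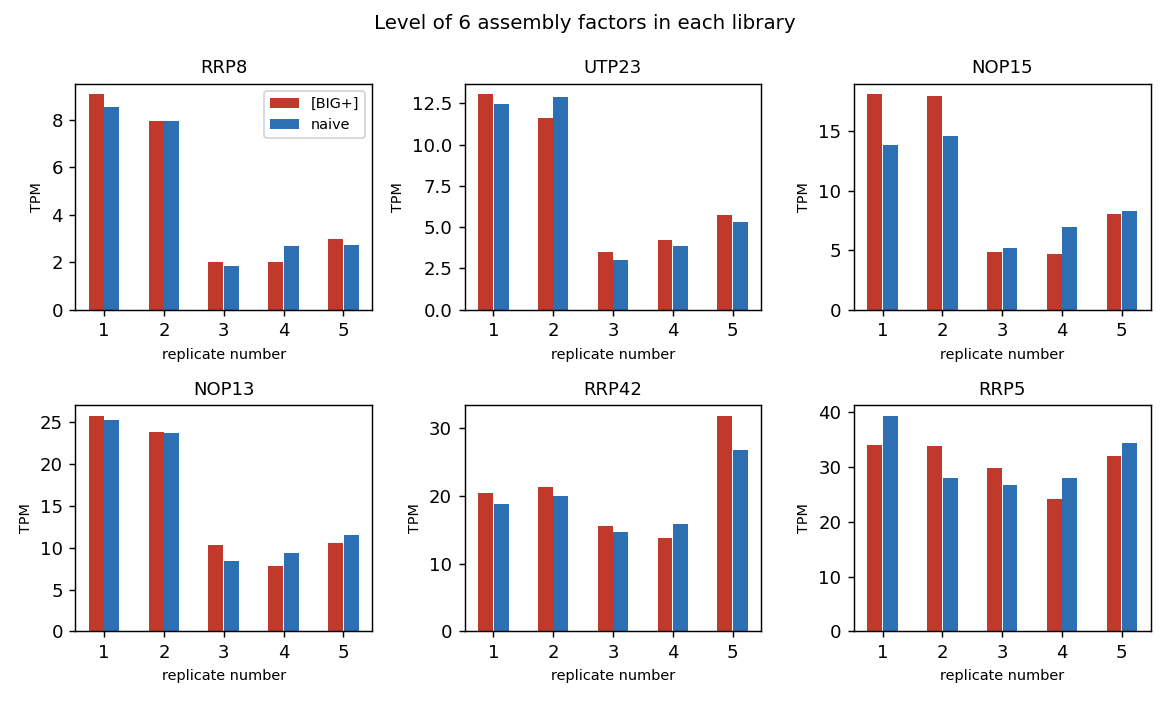
TPM of 6 assembly factors in each library (bars from 0), by replicate number, [BIG+] left of naive in each pair. RRP8, UTP23, NOP15 and NOP13 are high in numbers 1 and 2, RRP42 is highest in number 5, and RRP5 is the most even.

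By role, the median fold of numbers 1 and 2 over 3 and 4 was 2.28 for the other processome factors, 2.08 for large-subunit factors, 1.97 for UTP-B, 1.72 for UTP-A, 1.47 for the exosome and 1.42 for UTP-C. Within the exosome it ran from 1.35 for RRP42 to 1.68 for RRP43, and within UTP-A from 1.39 for UTP10 to 1.82 for UTP15. Within the large-subunit factors it ran from 1.58 for RRP1 to 3.92 for RRP8. RRP5 had the lowest of all, 1.24. These medians describe TPM as deposited and were not tested between roles. Members with PAC (24 tested) and without it (30 tested) had a like median range over the 5 numbers, 0.942 and 0.946 (log2), where all genes tested had 0.674. The mRNAs with both motifs other than assembly factors (118 tested) had 0.919. For members with and without PAC, numbers 3 and 4 minus 1 and 2 had medians of -0.81 and -0.72 (log2), where all genes had -0.156. Number 5 minus 1 and 2 had medians of -0.181 and -0.0273, where all genes had 0.28. The difference between members with and without PAC was not tested.

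Number 5 divided the genes on the deposited scale, where its mean was above that of numbers 1 and 2 (log2 scale) for 21 of 56 and below it for 35, where 72.5% of all genes tested were above. With median-of-ratios scaling 4 of 54 were above, where 49.3% of all genes were. As deposited, the exosome was above at 6 of 7 genes, UTP-A at 4 of 6, other processome factors at 2 of 16 and large-subunit factors at 5 of 20. With median-of-ratios scaling these counts were 2 of 7, 0 of 6, 0 of 16 and 1 of 18 tested. RRP42 (YDL111C, chromosome IV, 263313 to 264110), a subunit of the exosome ring, was at 20.4, 21.2, 15.5, 13.7 and 31.7 TPM in [BIG+] and 18.8, 20.0, 14.6, 15.8 and 26.7 TPM in naive cultures, 1.45-fold higher in number 5 than in 1 and 2 in TPM as deposited. RRP8 was at 0.341 of the level of numbers 1 and 2. The 56 genes lie on 14 chromosomes, and 2 pairs of them are neighbours among protein-coding genes. UTP9 and RIX1 on chromosome VIII run in the same direction 237 bases apart, and RRP15 and NOC4 on chromosome XVI run towards each other 689 bases apart, with 1 tRNA gene between them.

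**Figure D5:**
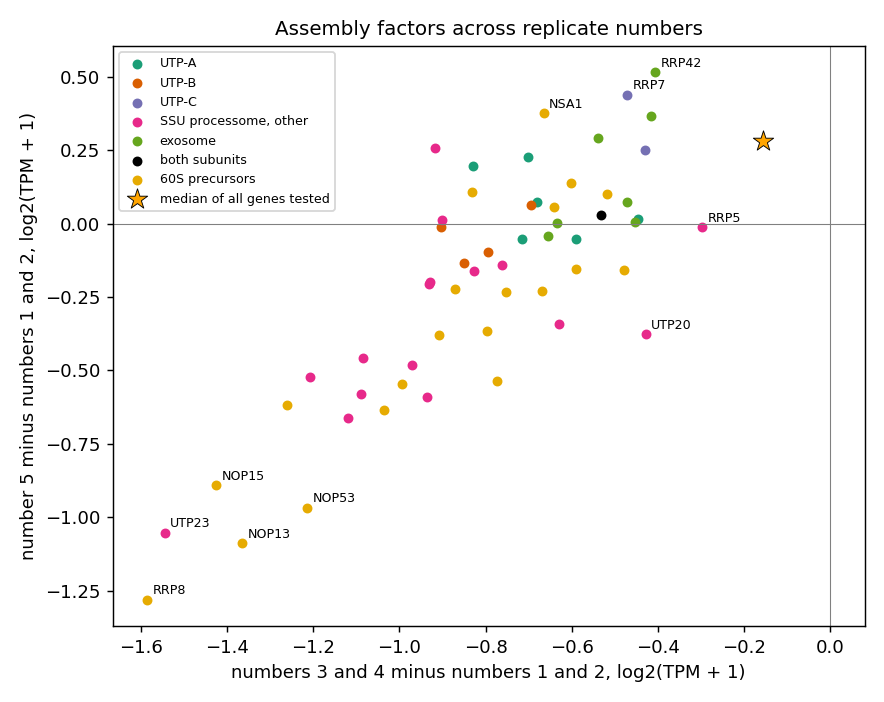
For each assembly factor, the mean log2(TPM + 1) of numbers 3 and 4 minus that of numbers 1 and 2 (horizontal) against number 5 minus numbers 1 and 2 (vertical), states together, coloured by role. The star is the median of all genes tested. All points lie left of 0, and 21 of 56 lie above 0 as deposited (4 of 54 with median-of-ratios scaling).

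Other genes of ribosome assembly are given by lists written with earlier results of these data known. Of the 4 snoRNP core genes left out by name and of 4 others (SNU13, GAR1, NHP2 and CBF5), 0 were called between the states and 8 of 8 across replicate numbers. Across numbers 63.3% of all genes were called. Without the cultures numbered 5, 4 of 4 passed in each list, where 24.4% of all genes did. NOP58, a core protein of box C/D snoRNPs, was at 115, 113, 50.0, 40.2 and 67.0 TPM in [BIG+] and 99.7, 96.5, 41.3, 47.5 and 65.9 TPM in naive cultures. Of 44 further small-subunit factors tested 0 were called between the states, with or without the block, and 43 across numbers, and of 60 large-subunit factors 0 and 56. Without the cultures numbered 5, 37 and 48 passed across numbers, or 84.1% and 80%, where 24.4% of all genes did. The largest fold changes in these lists were TSR1 (-0.18 ± 0.25) and TMA16 (0.29 ± 0.29; SE). Of 11 other exosome subunits and cofactors 0 and 11 were called, and without the cultures numbered 5 there were 9 across numbers. MTR4, the helicase that feeds the nuclear exosome, was the most changed of them between the states, at -0.16 ± 0.25 (SE). Of 15 RNA polymerase I genes 0 were called between the states and 10 across numbers, or 66.7%, near the 63.3% of all genes. Without the cultures numbered 5 there were 7, or 46.7%, where 24.4% of all genes were called. RPA43, a subunit, was 2.75-fold higher in numbers 1 and 2 than in 3 and 4, and RPA190, the largest subunit, 1.10-fold. Cytosolic ribosomal protein genes, 129 of them, had 0 called between the states and 46 across numbers, or 35.7%, where 63.3% of all genes were called. Without the cultures numbered 5 they had 41, or 31.8%, where 24.4% of all genes were called, so which share is higher depended on those cultures.

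Among 15 regulators of ribosome genes, 0 were called between the states by limma with or without the block. All 15 had negative fold changes, where 66.3% of all genes did, with a median of -0.16. With median-of-ratios scaling 15 of 15 did, where 49.9% of all genes did, and with scaling to nuclear mRNA 15 of 15 (65.1%). Under quantile normalization 12 of 15 did, where 49.3% of all genes did. DOT6 (YER088C), one of the PAC-binding repressors, had the largest, at 13.2, 9.37, 6.14, 4.66 and 7.54 TPM in [BIG+] and 21.2, 11.9, 7.14, 7.50 and 10.3 TPM in naive cultures. [BIG+] was lower in each pair, but the states overlapped, and the difference was -0.43 ± 0.29 on the log2 scale (SE). Its limma adjusted p was 0.999, and with the block the SE was 0.10 and the adjusted p 0.121. Across numbers 11 of 15 passed, where 63.3% of all genes did, and without the cultures numbered 5 there were 6 of 15, where 24.4% did. TOD6, the paralog of DOT6, was at 5.19, 4.50, 2.02, 1.36 and 5.78 TPM in [BIG+] and 6.13, 3.70, 1.79, 2.47 and 6.71 TPM in naive cultures. Its mean TPM was 2.55-fold higher in numbers 1 and 2 than in 3 and 4, and that of SFP1, an activator of these genes, 1.59-fold.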

How the data were processed

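Total RNA depleted of rRNA with RiboZero was sequenced from 5 [BIG+] and 5 naive cultures, per the labels' protocols. The authors deposited a single TPM table; Bowtie2, HTSeq and build R64 are named in the submitters' processing notes, without versions, annotation release or strand setting. No value is given on 4 of its lines, and 0 columns were unmapped. Sequencing depth is unknown. Features with a mean of at least 1 TPM (5732) were fitted as log2(TPM + 1) in limma 3.58.1 (R 4.3.3; trended eBayes, two-sided, Benjamini-Hochberg over all features, threshold 0.05), by state without a block and, for the replicate number, by an F test beside the state. Pairing was checked by correlating deviations from state means: same-numbered libraries gave 0.743, 0.569, 0.531, 0.355 and 0.475, all above 0.1, so numbers were treated as pairs, although [BIG+] 4 correlated more with naive 3 (0.521) than with naive 4, and [BIG+] 2 as much with naive 1 (0.571) as with naive 2. Alternatives were pseudocounts of 0.1 and 10, other filters and scalings, an untrended eBayes, the block, and leaving out libraries. Promoters were read from the RefSeq R64 genome. The steps were tested on simulated data. Without the block 10% of log2 shifts of 0.5 between the states and 70% of shifts of 1.0 were recovered, with 0 false calls. With the block 56% and 92% were recovered, with 11 false calls. Named by rule were, in each role, the most abundant and the most changed gene. So were the 3 most changed each way, the 4 widest in range over replicate numbers, the highest and the lowest. The rule also picks the most changed gene of each other list. It is given only for the further subunit factors, other exosome genes, regulators and general stress genes. RRP42, NOP8, NOP53, NOP58, TOD6, SFP1, RPA43, RPA190 and the extremes within roles were named after their values were seen. The members and all lists were chosen with earlier results of these data known. Tables and figures used pandas 2.3.3 and matplotlib 3.10.9 under Python 3.11.15.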

Additional observations from a re-analysis of the deposited data

How the results depend on the processing

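The count of assembly factors called between the states was 0 under all 31 alternatives, and the lowest adjusted p among the 9 genes named for their fold change was 0.271; RRP8, UTP23, NOP15 and NOP13 were not among these. Their median log2 fold change lay between -0.13 (without naive replicate 3) and 0.14 (without [BIG+] replicate 4). Over all genes, 0 were called without a block and 35 with the replicate block, which changed no call of an assembly factor. With the block, pseudocounts of 0.1 and 10 gave 32 and 31 genes, no filter 17, a 10 TPM filter 54, median-of-ratios scaling 14, quantile normalization 17 and nuclear mRNA scaling 34; without each replicate number in turn, the paired fit gave 16, 4, 8, 18 and 30 for numbers 1 to 5. Without the block the 10 TPM filter gave 1 and each of the 3 scalings gave 3. RRP12 turned to 0.0557 with median-of-ratios scaling and 0.0248 with quantile normalization, with or without the block; in the paired fit it turned to 0.0565 without number 1 and 0.0755 without number 4, and UTP5 to 0.0689 without number 4. Leaving out single libraries, fold changes kept their sign but moved by over 1.5 times for UTP22 (-0.353 without naive replicate 3 to -0.124 without naive replicate 1), UTP11 (0.0617 without [BIG+] replicate 1 to 0.271 without [BIG+] replicate 4), RRP36 (0.0178 without naive replicate 4 to 0.272 without [BIG+] replicate 3) and RRP15 (0.0392 without [BIG+] replicate 2 to 0.26 without [BIG+] replicate 4). Those that changed sign lay from -0.197 to 0.124 for UTP5, -0.024 to 0.235 for RRP40, -0.0997 to 0.12 for RRP12, -0.28 to 0.0465 for UTP18 and -0.298 to 0.0811 for NOC4. Across replicate numbers the 10 TPM filter left 21 of 22 assembly factors called and 1680 genes, median-of-ratios scaling 2181 genes, quantile normalization 2094 and nuclear mRNA scaling 2247, against 3626; leaving out a number gave 47 to 53 assembly factors and 1401 (without number 5) to 3771 genes. The cause of these shifts was not tested, except that filters change how many genes are tested. TPM values carry no depth, so low genes such as NOP16 have no stated counting error.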
